A study of Homo sapiens with 8 samples.

Results

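Focal adhesions are the sites at which a cell grips the matrix beneath it. Integrins, each a pair of an alpha and a beta chain, bind collagen, laminin or proteins with an RGD motif such as fibronectin and vitronectin outside the cell. Inside it, talin and kindlin activate the integrin tail, the kinases FAK and SRC and adaptor proteins pass on signals, and vinculin, alpha-actinin, filamin, zyxin and the Ena/VASP proteins tie the plaque to actin stress fibres. Focal adhesions are prominent in cells spread on flat, stiff plastic, and are less conspicuous in epithelial cells within tissue.

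The genes described here were 54 genes of this machinery, listed by symbol as integrin chains and plaque components. The list was chosen with earlier results of these data known. Of the 54, 47 reached 10 counts in 2 or more libraries and were tested, of 13943 genes tested in all. The libraries were polyA RNA-seq of HepG2 cells, a human hepatocellular carcinoma line with genotype labelled WT, harvested by trypsin after 8 days on flat culture plastic (2D-primed, 4 libraries) or on a porous, inert polystyrene membrane (3D-primed, 4 libraries). Both groups had the same medium with serum. By the study's methods the 3D-primed cells were seeded more densely than the 2D-primed cells, and the inserts and plates were different vessels, so substrate, density and vessel cannot be told apart. The results hold for this 1 line, which is a model of the hepatocyte and not a hepatocyte.

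Each library held 21599630 to 25019499 estimated counts in 2D-primed cells against 22153063 to 27844077 in 3D-primed cells. Levels are given as CPM, the counts of a gene per 1000000 counts of its library after TMM scaling. Mitochondrially encoded genes took 1.40 to 1.81% of counts in the 2D-primed and 2.47 to 2.98% in the 3D-primed libraries, and the part of this difference in the results was not tested. All 8 hepatocyte-line markers were tested by the test used for all genes. In 3D-primed cells 2 were lower (APOB and SERPINA1) and 6 higher (such as ALB and HNF4A), where 31.6% of all genes tested were called lower and 32.4% higher. The summed level of these markers was 68975 to 75052 CPM in the 2D-primed against 96484 to 108487 CPM in the 3D-primed libraries. Of 9 fibroblast or stellate markers 4 were tested (COL1A1 lower, PDGFRB higher), with a summed 43.6 to 47.8 CPM in the 2D-primed and 41.8 to 49.8 CPM in the 3D-primed libraries, while COL1A2, COL3A1, PDGFRA, LUM and DCN had at most 2 counts in any library. Of 5 endothelial markers 3 were tested (CDH5 lower, VWF higher), with 5.66 to 7.76 CPM and 4.16 to 5.70 CPM in all, and KDR and TEK had at most 2 counts. Of 5 leukocyte markers 3 were tested (CD68 lower, LYZ higher), with 2195 to 2286 CPM and 2420 to 3027 CPM in all, nearly all of it LYZ, and PTPRC had at most 2 counts and CD3E none. In bulk RNA, fewer cells of a type and less RNA per cell cannot be told apart.

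To ask how far the adhesion machinery differed between the substrates, each gene was compared between the 4 2D-primed and the 4 3D-primed libraries with edgeR's quasi-likelihood test and Benjamini-Hochberg adjustment over all genes tested, called at an adjusted p below 0.05. Of the 47 genes, 35 (74.5%) were lower in 3D-primed cells, where 31.6% of all genes tested were called lower. TLN2, SRC and CSRP1 (6.38%) were higher, where 32.4% of all genes were, and 9 were not called. In either direction 38 of the 47 were called, beside 63.9% of all genes. At least 2-fold lower were 12 of the 47, beside 7.01% of all genes, and TLN2 was the 1 gene at least 2-fold higher. The 12 include ITGA5 and ITGA3, which passed the count filter only or mainly through the 2D-primed libraries. ITGAV, ITGA2 and VASP lay near the cut, with smallest log2 falls of 0.9525, 0.9776 and 0.9964 over the processing settings tried. The smallest log2 rise of TLN2 was 0.996. The median log2 fold change (3D-primed over 2D-primed) of the 47 was -0.50, beside 0.01 over all genes tested. The CPM of the groups did not overlap for 37 of the 47, beside 59.8% of all genes in either direction and 29.5% with the 3D-primed group below. In the GENCODE annotation of GRCh38, the genes on which most of the description turns lie as follows: FLNA (ENSG00000196924) at chrX:154348524-154374634, TNS1 (ENSG00000079308) at chr2:217799588-218033982, ITGA2 (ENSG00000164171) at chr5:52989340-53094779, ITGAV (ENSG00000138448) at chr2:186590010-186680901 and TLN2 (ENSG00000171914) at chr15:62390526-62844631.

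**Figure D1:**
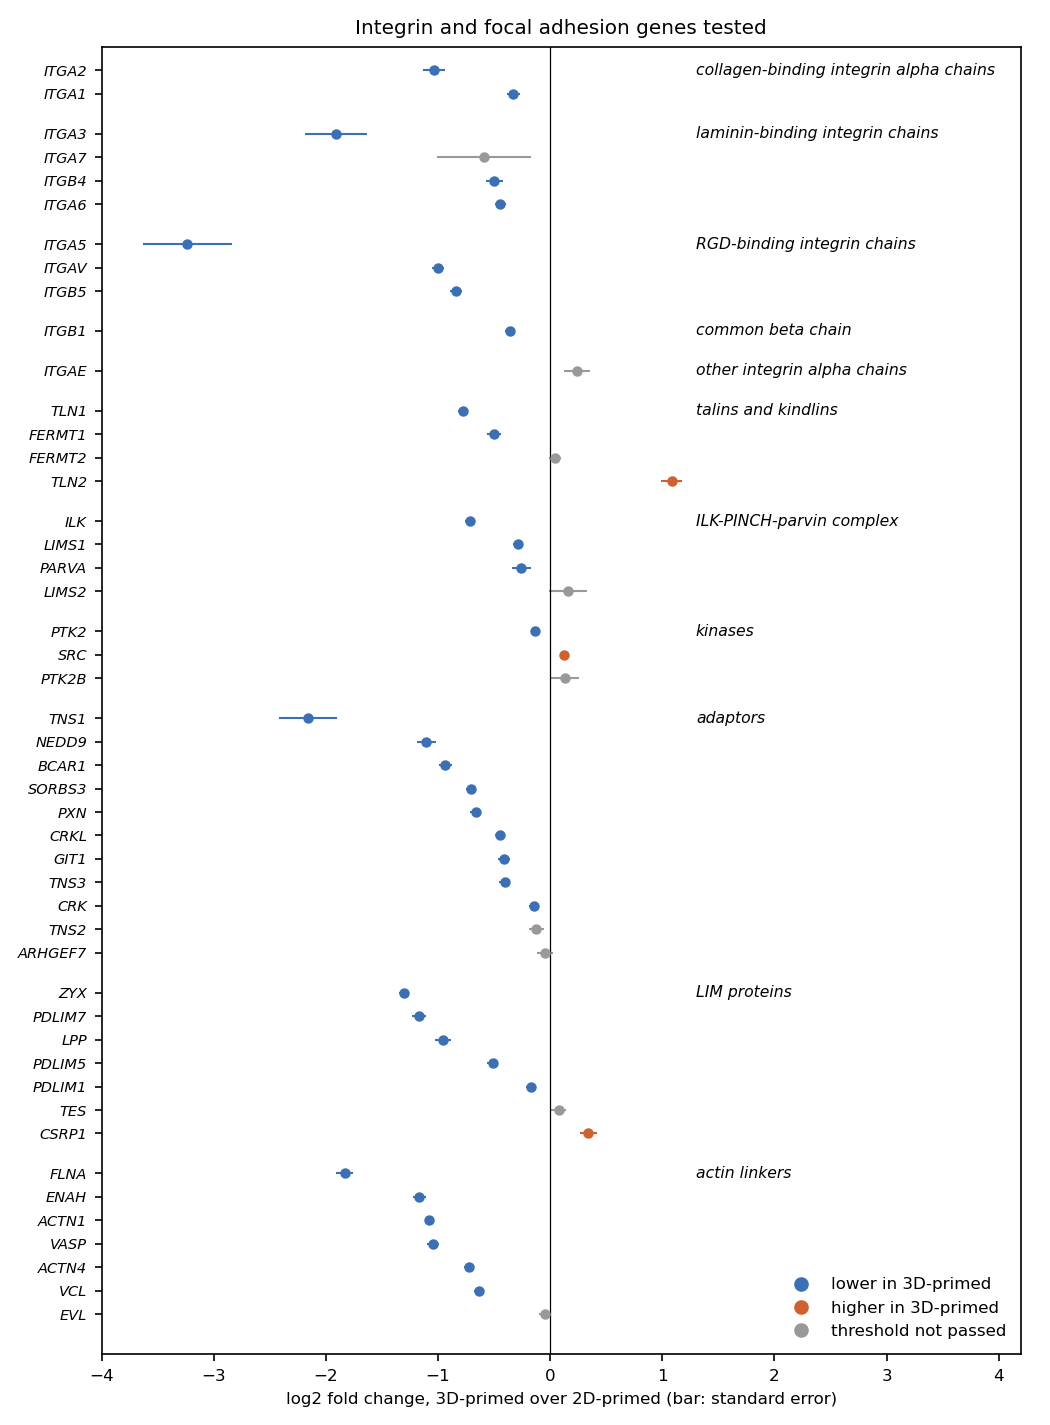
The log2 fold change of each of the 47 tested genes (horizontal axis, 3D-primed over 2D-primed, bar: standard error), by role and ordered within a role, with colour for the call. 35 points lie left of 0 in blue, 3 lie right of it in orange, and the range runs from -3.24 for ITGA5 to 1.08 for TLN2.

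The integrin chains are the receptors of this machinery. Of 15 chains listed 11 were tested, and the 9 called were all lower in 3D-primed cells, beside 31.6% of all genes tested called lower. The 9 include ITGA5, which passed the count filter only through the 2D-primed libraries. Both collagen-binding alpha chains fell. The level of ITGA1, which pairs with ITGB1 as a collagen receptor, was 68.00, 74.04, 70.1 and 66.1 CPM in the 2D-primed libraries (replicates 1 to 4) against 54.7, 54.2, 60.97 and 51.4 CPM in the 3D-primed libraries (replicates 1 to 4). The level of ITGA2, another collagen-binding chain, was 169, 169.8, 189.9 and 173 CPM in the 2D-primed libraries against 77.00, 83.9, 106 and 75.05 CPM in the 3D-primed libraries. In both genes every 2D-primed library lay above every 3D-primed library, and 3D-primed replicate 3 was the highest of its group. ITGA2 was 2.05-fold lower in 3D-primed cells (log2 fold change -1.04, SE 0.099, edgeR adjusted p = 7.8e-06), whereas ITGA1 was 1.26-fold lower (log2 -0.33, SE 0.057, edgeR adjusted p = 0.00051).

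Of the laminin-binding chains 3 of 4 fell, beside 31.6% of all genes tested. The level of ITGA6, the most abundant of them per length, was 186, 202, 206 and 189 CPM in the 2D-primed libraries against 137, 145, 143 and 153 CPM in the 3D-primed libraries. The level of ITGB4, which pairs with ITGA6 in hemidesmosomes, was 14.6, 16.6, 16.6 and 15.5 CPM in the 2D-primed libraries against 11.5, 10.9, 10.00 and 12.5 CPM in the 3D-primed libraries. The groups were apart in both. ITGA6 fell by 0.44 on the log2 scale (SE 0.049, edgeR adjusted p = 2e-05) and ITGB4 by 0.50 (SE 0.078, edgeR adjusted p = 0.00027). ITGA3, named after its values were seen since it lay below the 1 CPM set for giving all libraries, had 112 counts over the 2D-primed and 32 over the 3D-primed libraries, a log2 fold change of -1.91 (SE 0.275, edgeR adjusted p = 0.00014) between low levels, and passed the count filter through the 4 2D-primed and 1 3D-primed library. ITGA7, a laminin receptor of muscle, had 33 and 24 counts in all and was not called (log2 -0.59, SE 0.419, edgeR adjusted p = 0.24).

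The 3 tested RGD-binding chains all fell, beside 31.6% of all genes tested. The level of ITGAV, the alpha chain of the vitronectin receptors, was 209, 201, 232 and 199 CPM in the 2D-primed libraries against 103, 106, 102 and 109 CPM in the 3D-primed libraries. The level of ITGB5, its main partner among the tested beta chains, was 235, 248, 264 and 245 CPM in the 2D-primed libraries against 144, 138, 144 and 129 CPM in the 3D-primed libraries. Neither gene had a 3D-primed library near the 2D-primed range. ITGAV was 2.00-fold lower (log2 SE 0.054, edgeR adjusted p = 1.7e-07) and ITGB5 1.79-fold lower (log2 -0.84, SE 0.051, edgeR adjusted p = 3.6e-07). ITGA5, the fibronectin receptor's alpha chain, is named after its values were seen. It was scarce in HepG2 cells, with 24, 39, 62 and 43 counts in the 2D-primed libraries and 4, 4, 9 and 2 in the 3D-primed libraries. Its log2 fold change was -3.24 (SE 0.398, edgeR adjusted p = 4.6e-05), and it passed the count filter only through the 2D-primed libraries, where it was higher. It is counted among the 35 lower genes. With 10 counts required in all 8 libraries, which leaves out ITGA5 and ITGA3, 33 genes were lower and 3 higher. ITGB3, ITGB6 and ITGB8, other partners of ITGAV, did not pass the filter. ITGB3 had 5, 10, 8 and 0 counts in the 2D-primed against 0, 1, 1 and 0 in the 3D-primed libraries, ITGB6 had 3 and 0 counts in all, where a count of 0 allows up to 3, and ITGB8 had 18 and 11.

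The level of ITGB1, the beta chain shared by the collagen receptors and most laminin and fibronectin receptors, was 619.8, 641, 679.5 and 638 CPM in the 2D-primed libraries against 498, 505, 527 and 482 CPM in the 3D-primed libraries. It was also per length the most abundant integrin gene in every library, and its groups were apart. ITGB1 was 1.28-fold lower in 3D-primed cells (log2 -0.36, SE 0.042, edgeR adjusted p = 3.6e-05), a smaller difference than that of ITGA2, ITGAV or ITGB5. The level of ITGAE, best known from lymphocytes of epithelia as a receptor for E-cadherin, was 5.59, 5.14, 4.92 and 5.40 CPM in the 2D-primed libraries against 7.02, 5.09, 5.91 and 6.79 CPM in the 3D-primed libraries. Its groups overlapped, and the call was not made (log2 0.24, SE 0.115, edgeR adjusted p = 0.093), although it was without 3D-primed replicate 2 (log2 0.31, edgeR adjusted p = 0.027). CDH1, the E-cadherin gene, stood at log2 0.01 (edgeR adjusted p = 0.96). ITGA9 had 6 counts in the 2D-primed against 8 in the 3D-primed libraries and was not tested.

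**Figure D2:**
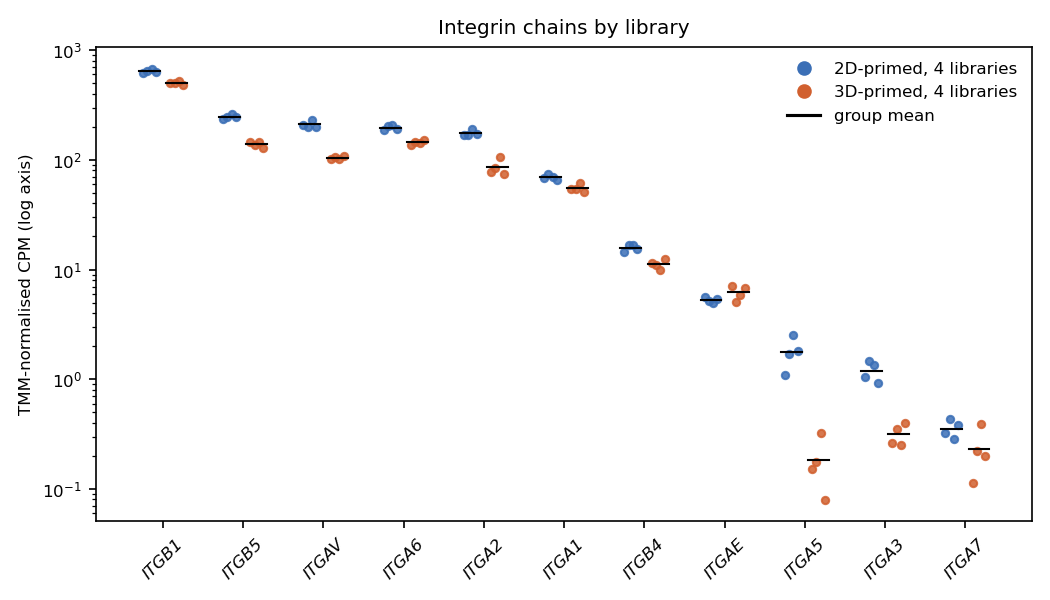
TMM-normalised CPM (vertical, log axis) of the 11 tested integrin chains in each of the 4 2D-primed and 4 3D-primed libraries, with a bar at the group mean. The groups are apart for 9 chains, from ITGB1 at 644.7 CPM and 503 CPM down to ITGA3, and they overlap for ITGAE and ITGA7. Over all genes tested, 59.8% have groups apart.

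Since the chains fell unequally, their proportions differed. Per kilobase of the canonical transcript, the summed level of the 9 alpha chains was 94.6 ± 4.77 CPM per kb in 2D-primed cells and 57.6 ± 2.12 CPM per kb in 3D-primed cells (SD, n = 4). ITGA6 made up 35.7 ± 0.974% of that sum in the 2D-primed and 43.1 ± 1.81% in the 3D-primed libraries. ITGAV made up 31.6 ± 1.07% and 25.9 ± 1.19%, and ITGA2 made up 23.7 ± 0.491% and 18.9 ± 2.58%. ITGA1 went the other way, with 6.86 ± 0.372% and 8.95 ± 0.534%. Among the 6 beta chains, ITGB1 made up 74.7 ± 0.245% in the 2D-primed and 80.2 ± 0.509% in the 3D-primed libraries, and ITGB5 24.2 ± 0.207% and 18.6 ± 0.531%. The sizes of the shares, and the order of ITGAV and ITGA2, rest on the length used. By merged exon length, an alternative chosen after seeing the data, ITGAV made up 16.1 ± 0.639% and 13.0 ± 0.738% of the alpha chains in the 2D-primed and 3D-primed libraries, and ITGA2 33.0 ± 0.733% and 25.8 ± 3.21%. ITGB1 then made up 52.2 ± 0.332% and 60.1 ± 0.759% of the beta chains, and ITGB5 44.9 ± 0.254% and 37.0 ± 0.842%. By either length the groups were apart, in the same direction, in the shares of ITGA1, ITGA2, ITGA6, ITGAV, ITGB1 and ITGB5. The shares are a description of transcript levels, computed after the values were seen, and not of receptors on the cell surface.

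The talins and kindlins bind the tails of the beta chains and bring the integrin into its active state, and here the members of each family did not move together. The level of TLN1, the talin of most cells, was 325, 340.3, 327 and 314 CPM in the 2D-primed libraries against 188, 186, 194 and 193 CPM in the 3D-primed libraries. The level of TLN2, its close relative, was 14.4, 15.8, 11.4 and 14.1 CPM in the 2D-primed libraries against 27.1, 32.2, 30.1 and 28.6 CPM in the 3D-primed libraries. The groups were apart in opposite directions. TLN1 was 1.72-fold lower in 3D-primed cells (log2 -0.78, SE 0.037, edgeR adjusted p = 1e-07) and TLN2 2.12-fold higher (log2 1.08, SE 0.094, edgeR adjusted p = 3.9e-06). Per length TLN1 stayed the main talin, and TLN2 made up 2.97 ± 0.351% of talin in the 2D-primed and 10.0 ± 0.755% in the 3D-primed libraries.

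The level of FERMT1, the kindlin of epithelia, was 62.5, 56.02, 55.6 and 52.1 CPM in the 2D-primed libraries against 41.1, 42.1, 36.3 and 40.2 CPM in the 3D-primed libraries. The level of FERMT2, the kindlin found in most tissues, was 59.4, 59.95, 61.8 and 64.98 CPM in the 2D-primed libraries against 68.6, 61.1, 65.4 and 58.7 CPM in the 3D-primed libraries. FERMT1 was apart between the groups and 1.42-fold lower in 3D-primed cells (log2 -0.50, SE 0.064, edgeR adjusted p = 5.7e-05), while FERMT2 overlapped and was not called (log2 0.04, SE 0.054, edgeR adjusted p = 0.49). The share of FERMT1 in the kindlins per length was 39.4 ± 2.67% in the 2D-primed and 30.9 ± 2.24% in the 3D-primed libraries.

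ILK, PINCH and parvin form a complex of a pseudokinase and its partners that links the beta chain to actin. Of the 4 genes tested 3 fell, beside 31.6% of all genes tested. The level of ILK was 88.1, 87.1, 91.4 and 87.3 CPM in the 2D-primed libraries against 57.3, 53.8, 52.3 and 51.8 CPM in the 3D-primed libraries. The level of LIMS1, which encodes PINCH1, was 98.5, 104, 99.8 and 95.7 CPM in the 2D-primed libraries against 83.7, 79.2, 83.7 and 79.9 CPM in the 3D-primed libraries. The level of PARVA, alpha-parvin, was 25.2, 24.8, 27.1 and 21.7 CPM in the 2D-primed libraries against 19.7, 22.05, 18.3 and 22.8 CPM in the 3D-primed libraries. ILK and LIMS1 were apart between the groups, whereas in PARVA 2D-primed replicate 4 lay below 3D-primed replicates 2 and 4. ILK fell by 0.72 on the log2 scale (SE 0.042, edgeR adjusted p = 2.8e-07) and LIMS1 by 0.29 (SE 0.040, edgeR adjusted p = 0.00011). The call of PARVA (log2 -0.26, SE 0.086, edgeR adjusted p = 0.023) was lost without 2D-primed replicate 1, 2D-primed replicate 3 or 3D-primed replicate 1, at adjusted p of 0.051, 0.066 and 0.052. LIMS2, PINCH2, had 3.31 ± 0.564 CPM in the 2D-primed and 3.69 ± 0.699 CPM in the 3D-primed libraries (SD, n = 4) and was not called (edgeR adjusted p = 0.44). PARVB had 21 and 17 counts in all and was not tested.

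The kinases differed least. The level of PTK2, which encodes FAK, was 102, 106, 111 and 106 CPM in the 2D-primed libraries against 93.7, 96.6, 99.3 and 98.8 CPM in the 3D-primed libraries. The level of SRC, its partner kinase, was 151, 161, 162 and 157 CPM in the 2D-primed libraries against 167, 173, 172 and 178 CPM in the 3D-primed libraries. The level of PTK2B, which encodes the FAK relative PYK2, was 4.35, 4.15, 3.34 and 3.42 CPM in the 2D-primed libraries against 4.26, 4.43, 4.27 and 3.77 CPM in the 3D-primed libraries. PTK2 and SRC were each apart between the groups by a narrow gap, and PTK2B overlapped. PTK2 was 1.10-fold lower (log2 -0.13, SE 0.039, edgeR adjusted p = 0.013), SRC 1.09-fold higher (log2 0.13, SE 0.037, edgeR adjusted p = 0.012), and PTK2B was not called (log2 0.13, SE 0.125, edgeR adjusted p = 0.37). The call of PTK2 was lost with upper-quartile scaling (edgeR adjusted p = 0.084), and that of SRC was not lost in any setting tried.

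Adaptors carry the signal on from the kinases, and 9 of the 11 were lower in 3D-primed cells, beside 31.6% of all genes tested. The level of TNS1, tensin 1, which links integrin tails to actin in mature adhesions, was 426, 581, 611 and 566 CPM in the 2D-primed libraries against 106, 116, 194 and 71.1 CPM in the 3D-primed libraries. TNS1 was also the most variable of the 41 genes with at least 10 CPM: its 3D-primed libraries spread with a coefficient of variation of 42.5%, replicate 3 highest and replicate 4 lowest, and its 2D-primed libraries with 15.02%, replicate 1 lowest. The groups were nevertheless apart by a wide gap. TNS1 was 4.47-fold lower in 3D-primed cells (log2 -2.16, SE 0.256, edgeR adjusted p = 3.6e-05), and leaving out each library in turn gave log2 values of -2.49 to -1.97. The level of NEDD9, a docking protein of the CAS family, was 455, 481, 511 and 500.2 CPM in the 2D-primed libraries against 229, 219, 263 and 196 CPM in the 3D-primed libraries. The level of BCAR1, the founding member p130CAS, was 81.5, 96.1, 90.2 and 87.4 CPM in the 2D-primed libraries against 44.4, 44.4, 50.4 and 46.5 CPM in the 3D-primed libraries. Both were apart, with NEDD9 2.15-fold lower (log2 -1.10, SE 0.081, edgeR adjusted p = 1.3e-06) and BCAR1 1.91-fold lower (log2 -0.94, SE 0.060, edgeR adjusted p = 5.2e-07).

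Of the other adaptors 6 fell by less and 2 were not called. SORBS3, the vinculin-binding protein vinexin, was 86.2 ± 5.21 CPM in the 2D-primed and 52.8 ± 1.01 CPM in the 3D-primed libraries (SD, n = 4, log2 -0.71, edgeR adjusted p = 6.9e-07). PXN, paxillin, was 69.6 ± 2.54 and 43.9 ± 2.23 CPM (log2 -0.67, edgeR adjusted p = 8.6e-07). CRKL, GIT1 and TNS3 fell by 0.45, 0.41 and 0.41 on the log2 scale. CRK, which like CRKL binds the CAS proteins, stood at log2 -0.14 (edgeR adjusted p = 0.019), which was lost with total-count scaling (0.074), with upper-quartile scaling (0.11) and without 2D-primed replicate 3 (0.055). TNS2 (log2 -0.12, edgeR adjusted p = 0.13) and ARHGEF7, the GIT1 partner beta-PIX (log2 -0.04, edgeR adjusted p = 0.61), were not called. Within the tensins, TNS1 made up 61.6 ± 3.78% of the summed level per length in the 2D-primed and 31.1 ± 8.96% in the 3D-primed libraries, and TNS3 made up 34.4 ± 3.39% and 60.4 ± 7.53%.

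LIM proteins gather at adhesions under tension or scaffold actin bundles. Of the 7 tested, 5 were lower and 1 higher in 3D-primed cells, beside 31.6% and 32.4% of all genes tested. The level of ZYX, zyxin, was 118, 125, 122 and 118 CPM in the 2D-primed libraries against 46.5, 48.04, 49.5 and 51.7 CPM in the 3D-primed libraries. The level of PDLIM7, a PDZ and LIM protein of stress fibres, was 27.8, 28.01, 31.1 and 28.5 CPM in the 2D-primed libraries against 12.9, 13.2, 11.7 and 13.6 CPM in the 3D-primed libraries. The level of LPP, a relative of zyxin, was 136, 138, 145 and 125 CPM in the 2D-primed libraries against 61.5, 71.2, 76.5 and 71.6 CPM in the 3D-primed libraries. The groups were apart in all 3, and ZYX in 3D-primed replicates varied little around its lower level. ZYX was 2.47-fold lower (log2 -1.31, SE 0.043, edgeR adjusted p = 1.6e-08), PDLIM7 2.25-fold lower (log2 -1.17, SE 0.062, edgeR adjusted p = 1.7e-07) and LPP 1.94-fold lower (log2 -0.95, SE 0.069, edgeR adjusted p = 1.1e-06). The level of CSRP1, a LIM protein that binds alpha-actinin and zyxin, was 28.9, 28.4, 26.5 and 27.8 CPM in the 2D-primed libraries against 39.8, 32.8, 31.4 and 37.3 CPM in the 3D-primed libraries. It was the exception in its group, apart and 1.27-fold higher in 3D-primed cells (log2 0.34, SE 0.074, edgeR adjusted p = 0.0023). PDLIM5 fell by 0.51 and PDLIM1 by 0.17 on the log2 scale, TES was not called (log2 0.08, edgeR adjusted p = 0.33), and TRIP6, another relative of zyxin, had 14 and 17 counts in all.

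The actin linkers had the lowest median of the plaque groups, at a log2 fold change of -1.05 over 7 tested genes. Of these 6 were lower, beside 31.6% of all genes tested. The level of FLNA, filamin A, which crosslinks actin and binds beta chain tails, was 1013, 1079, 1124 and 1018 CPM in the 2D-primed libraries against 269, 302, 341 and 275 CPM in the 3D-primed libraries. The level of ENAH, the Ena/VASP protein Mena, was 159, 158, 174 and 152 CPM in the 2D-primed libraries against 65.3, 74.2, 73.1 and 74.2 CPM in the 3D-primed libraries. The level of ACTN1, alpha-actinin 1, was 405, 414, 424 and 397 CPM in the 2D-primed libraries against 195, 192, 201 and 188 CPM in the 3D-primed libraries. No 3D-primed library of these genes came near a 2D-primed library. FLNA was 3.56-fold lower (log2 -1.83, SE 0.076, edgeR adjusted p = 4.5e-08), ENAH 2.24-fold lower (log2 -1.17, SE 0.057, edgeR adjusted p = 1e-07) and ACTN1 2.11-fold lower (log2 -1.08, SE 0.038, edgeR adjusted p = 2.1e-08). VASP, ACTN4 and VCL fell by 1.05, 0.72 and 0.63 on the log2 scale. EVL, the remaining Ena/VASP protein, was 24.5 ± 1.00 CPM in the 2D-primed and 23.7 ± 1.04 CPM in the 3D-primed libraries (SD, n = 4), and was not called (log2 -0.05, SE 0.051, edgeR adjusted p = 0.42). FLNC, the filamin of muscle, had 9 and 3 counts in all.

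**Figure D3:**
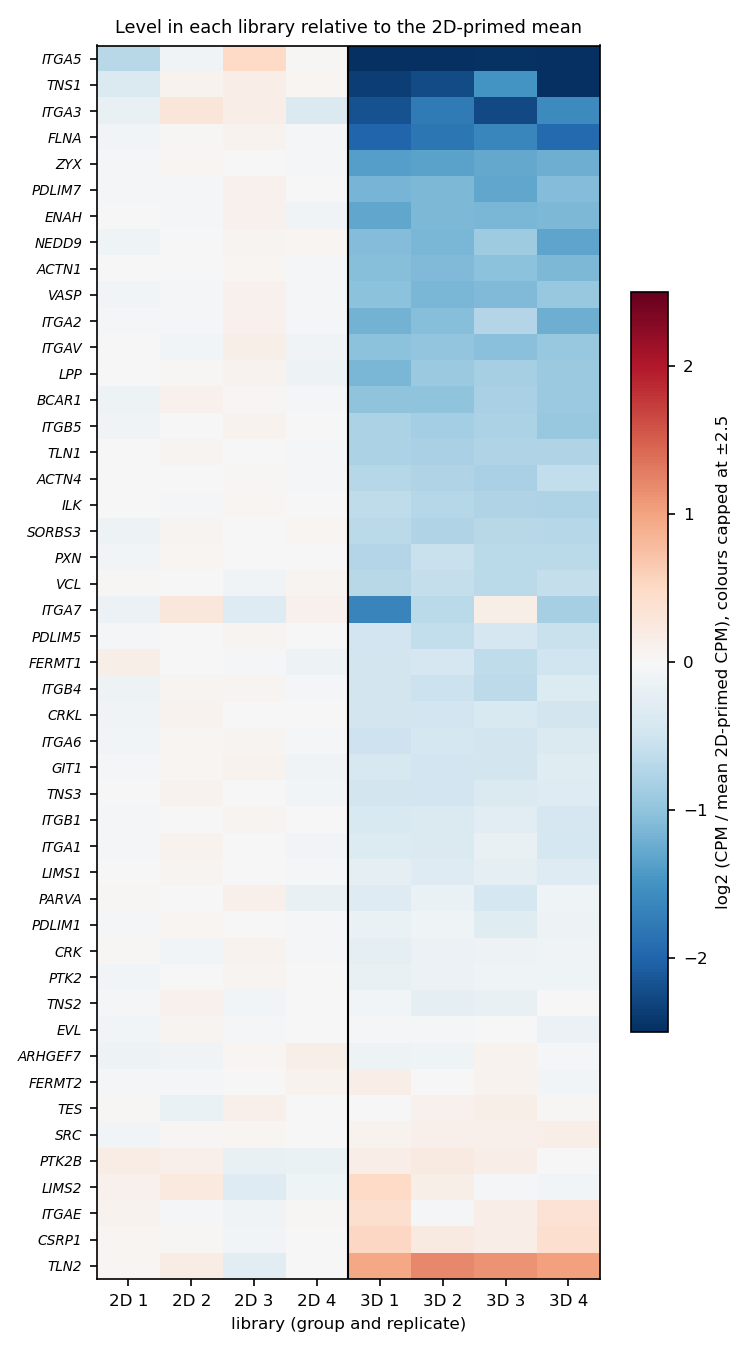
Colour gives the log2 of each library's CPM over the 2D-primed mean for the 47 tested genes (rows, ordered by fold change), with the 4 2D-primed libraries left of the line and the 4 3D-primed libraries right of it. Colours stop at 2.5 in either direction, which 3 ITGA5 values and 1 TNS1 value in 3D-primed cells exceed, and 3D-primed replicate 3 is paler than its neighbours in TNS1, NEDD9 and ITGA2.

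Replicates agreed closely for most genes. Over the 41 genes with at least 10 CPM the median coefficient of variation was 4.97% in the 2D-primed and 5.93% in the 3D-primed libraries, beside 4.88% and 5.52% over 8991 genes at that level. ITGA2 (16.6%), NEDD9 (12.4%) and FLNA (11.1%) followed TNS1 in 3D-primed cells, all with replicate 3 highest. Among the 35 lower genes, 2D-primed replicate 3 was the highest of its group in 22 (62.9%), beside 46.8% of all genes called lower, and 3D-primed replicate 3 in 15 (42.9%), beside 45.5%.

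Pairs of related genes were set against each other within each library, which takes out scaling between libraries. Of 21 pairs listed 18 could be computed with both genes tested, and for 14 the log2 ratio of counts was apart between the groups. Groups that are apart give p = 0.029 in a two-sided exact permutation test, the smallest that 4 against 4 libraries allow. After adjustment over the 18 pairs this permutation p was 0.037. Single genes had groups apart in 59.8% of all genes tested, and the share among pairs of other genes was not computed. Some pairs share a gene (TNS1, VASP and ITGB1 are each in 2), and the pairs were chosen with earlier results of these data known. TLN2/TLN1 had a log2 ratio of -4.56 ± 0.187 in the 2D-primed and -2.69 ± 0.119 in the 3D-primed libraries (SD, n = 4), 3.65-fold higher in the latter. TNS2/TNS1 was 4.33-fold and TNS3/TNS1 3.57-fold higher in 3D-primed cells. EVL/VASP was 2.00-fold higher, with VASP called lower and EVL not called. Smaller rises were those of PDLIM5/PDLIM7 (1.57-fold), LIMS2/LIMS1 (1.36-fold), ACTN4/ACTN1 (1.28-fold) and LPP/ZYX (1.27-fold).

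In the opposite direction, ITGA5/ITGAV was 4.70-fold, ITGA3/ITGA6 2.67-fold, ITGA2/ITGA1 1.64-fold, FERMT1/FERMT2 1.46-fold, ITGB5/ITGB1 1.40-fold and CRKL/CRK 1.23-fold lower in 3D-primed cells. In each of these the first-named gene had the lower log2 fold change of the pair. ITGA5 reached 10 counts in none of the 3D-primed libraries and ITGA3 in 1, so both passed the count filter mainly through the 2D-primed libraries, and their ratios are given as a description. Without ITGA5/ITGAV the groups were apart in 13 of 17 pairs. For 4 pairs the groups overlapped: ITGB4/ITGB1 (difference in log2 ratio -0.14, exact permutation p = 0.23), NEDD9/BCAR1 (-0.17, exact permutation p = 0.086), ENAH/VASP (-0.12, exact permutation p = 0.20) and PTK2B/PTK2 (0.27, exact permutation p = 0.11).

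**Figure D4:**
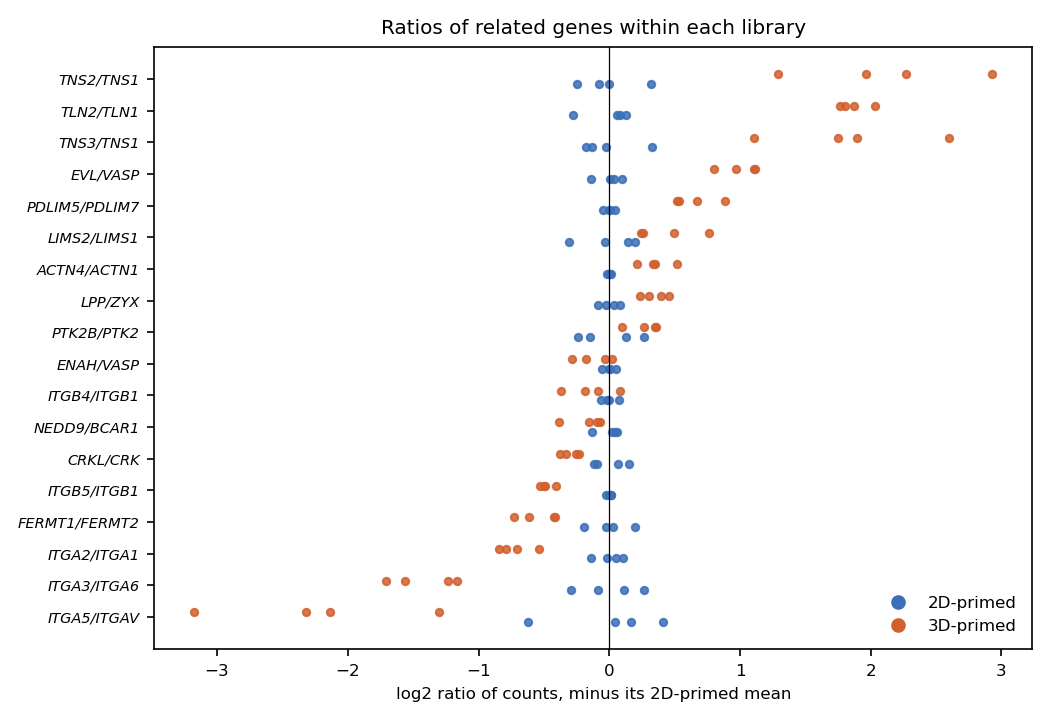
The log2 ratio of counts of 18 pairs of related genes in each library, minus the mean of the 4 2D-primed libraries (horizontal axis), with 2D-primed points in blue and 3D-primed points in orange. In 14 pairs the colours do not mix, from TNS2/TNS1 at the top to ITGA5/ITGAV at the bottom, and the points of the pairs with TNS1, ITGA5 or ITGA3 spread most.

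Levels can be compared between genes only per length. By the canonical transcript's length ITGB1 was the highest of the 47 genes in both groups, with 172.6 ± 6.72 CPM per kb in 2D-primed and 134.7 ± 4.95 CPM per kb in 3D-primed cells (SD, n = 4). After it in 2D-primed cells came FLNA (124 ± 6.20), ACTN4 (123 ± 2.43), PDLIM1 (114 ± 2.82), ACTN1 (110.1 ± 3.08) and NEDD9 (108 ± 5.46). FLNA and ACTN4, PDLIM1 and ACTN1, and ACTN1 and NEDD9 each differed by less than the sum of their SDs. In 3D-primed cells the order was PDLIM1 (101 ± 6.12), ACTN4 (74.7 ± 4.52), ACTN1 (52.2 ± 1.51) and NEDD9 (50.1 ± 6.20), then SRC (37.1 ± 0.909) and FLNA (34.9 ± 3.88), where ACTN1 and NEDD9, and SRC and FLNA, again differed by less than the sum of their SDs. FLNA in 3D-primed cells also lay within the summed SDs of ITGB5, VASP and ILK, so its place there, 7 against 2 in the 2D-primed libraries, is not resolved from those of its neighbours. TNS1 stood in place 10 and place 25, and SRC in place 13 and place 6. The order rests on the length used. By merged exon length ITGB1, with 44.3 CPM per kb in the 2D-primed and 34.5 in the 3D-primed libraries, stood in place 5 and place 3, below ACTN4 (100.5 and 60.9) and PDLIM1 (73.2 and 65.0) in both groups. FLNA then stood in place 2 and place 4, TNS1 in place 9 and place 22, and SRC in place 16 and place 5. Above 10 CPM per kb were 33 genes in the 2D-primed against 28 in the 3D-primed libraries, or 23 against 18 by merged exon length.

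**Figure D5:**
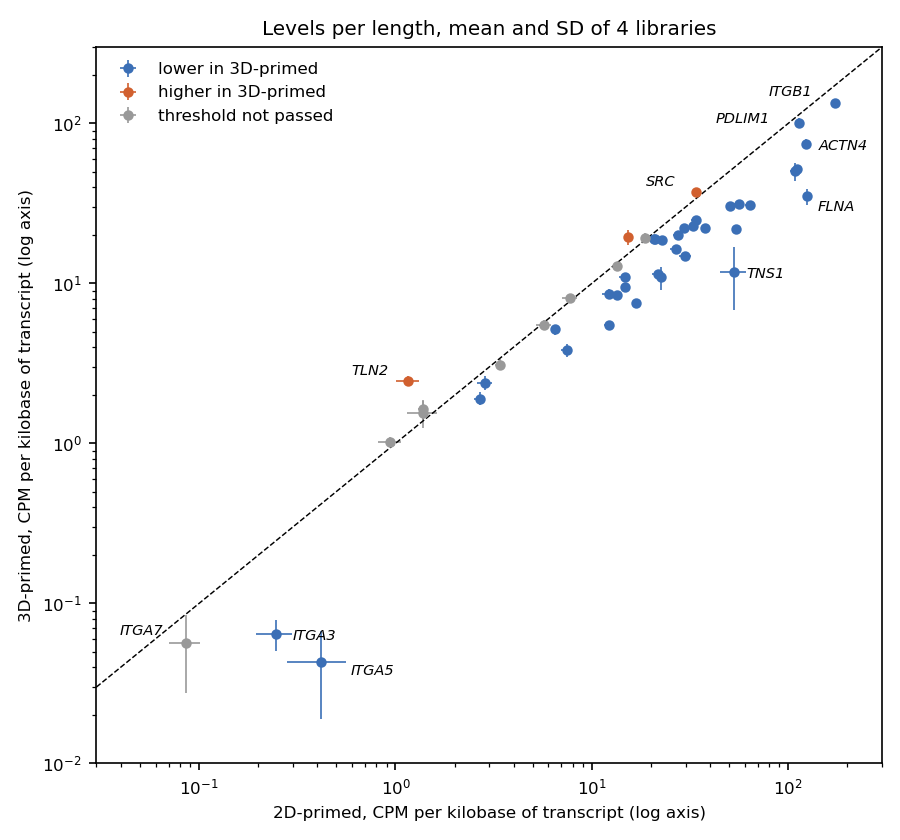
Mean CPM per kilobase of transcript of the 47 tested genes in 2D-primed (horizontal) and 3D-primed cells (vertical), both on log axes, bars the SD of 4 libraries, dashed line equal levels. Most points lie below the line, FLNA and TNS1 farthest among the abundant genes, and TLN2 and SRC lie above it.

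To see whether the genes around the listed ones moved likewise, a further list of 56 adhesion plaque genes was examined. It too was chosen with earlier results of these data known. Of its 45 tested genes 25 (55.6%) were lower and 6 (13.3%) higher in 3D-primed cells, beside 31.6% and 32.4% of all genes tested, and 14 were not called, with a median log2 fold change of -0.32. In either direction 31 of the 45 were called, beside 63.9% of all genes. ELMO1, counted among the higher, reached 10 counts in none of the 2D-primed libraries and passed the filter only through the 3D-primed libraries. With 10 counts required in all 8 libraries, 25 genes of this list were lower and 4 higher. FBLIM1, ASAP2 and PAK2, among the genes of smallest p, were all lower. FBLIM1, migfilin, which joins filamin to kindlin, had 29.97, 34.9, 32.97 and 33.1 CPM in the 2D-primed libraries against 8.90, 10.3, 10.8 and 10.2 CPM in the 3D-primed libraries and was 3.25-fold lower (edgeR adjusted p = 4.8e-08). Its groups lay far apart. ASAP2, an Arf GTPase activator of adhesions, had 53.2, 58.2, 62.8 and 56.1 CPM in the 2D-primed libraries against 14.5, 17.4, 19.5 and 15.96 CPM in the 3D-primed libraries and was 3.42-fold lower (edgeR adjusted p = 1e-07). PAK2, a kinase activated by Rac and Cdc42, had 193, 196, 205 and 185 CPM in the 2D-primed libraries against 104, 108, 112 and 111 CPM in the 3D-primed libraries and was 1.79-fold lower (edgeR adjusted p = 1.3e-07).

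Against the majority of that list, ASAP3, of the same family as ASAP2, had 15.4, 16.7, 13.3 and 16.7 CPM in the 2D-primed libraries against 42.5, 38.8, 40.5 and 43.5 CPM in the 3D-primed libraries and was 2.67-fold higher in 3D-primed cells (edgeR adjusted p = 1.5e-07). DAB2, an adaptor for integrin endocytosis, had 5.32, 5.53, 5.01 and 5.27 CPM in the 2D-primed libraries against 13.4, 14.7, 11.3 and 13.3 CPM in the 3D-primed libraries and was 2.49-fold higher (edgeR adjusted p = 7.4e-07). Named after their values were seen, the LIM genes TGFB1I1 (the paxillin relative HIC-5) and FHL2 were 7.94-fold and 7.10-fold lower (edgeR adjusted p = 1.1e-06 and 3.1e-07), at 3.91 and 0.488 CPM and at 124 and 17.4 CPM.

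Of 30 integrin ligands 22 were tested, with 15 (68.2%) lower, 5 (22.7%) higher and 2 not called in 3D-primed cells, and a median log2 fold change of -0.59. In either direction 20 of the 22 were called, beside 63.9% of all genes tested (31.6% lower and 32.4% higher). COL1A1, COL4A2 and LAMB3, counted among the lower, reached 10 counts in none of the 3D-primed libraries. They passed the filter only through the 2D-primed libraries, where they were higher. With 10 counts required in all 8 libraries, 12 ligands were lower and 5 higher. This list, too, was chosen with earlier results of these data known. CCN1, a matricellular protein bound by ITGAV integrins, had 160.1, 151, 184 and 150.1 CPM in the 2D-primed libraries against 10.4, 11.1, 15.3 and 10.4 CPM in the 3D-primed libraries and was 13.6-fold lower (edgeR adjusted p = 1.5e-08). It was the 1 gene that fell among the 4 of smallest p. The other three were the chains of fibrinogen, a plasma protein of hepatocytes that integrins bind: FGA, FGB and FGG were higher by 3.23-fold, 2.94-fold and 3.41-fold (edgeR adjusted p = 7.9e-09, 2.2e-08 and 7.9e-09). FN1 (fibronectin), named with the laminin chains after the values were seen, was 16127 ± 1087 CPM in the 2D-primed against 10154 ± 905 CPM in the 3D-primed libraries (SD, n = 4, log2 -0.67, edgeR adjusted p = 1e-05). The laminin chain genes LAMC1, LAMB2, LAMB1 and LAMA5 fell by 0.90, 0.52, 0.44 and 0.38 on the log2 scale (edgeR adjusted p at most 0.0012).

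Sequences around transcript starts were read from RefSeq promoter windows (GRCh38.p14, 250 bases before to 50 after a transcript start), which matched 43 of the 54 genes with 89 windows. A gene can have windows at several starts, some of them inside its span. The CArG box, which serum response factor binds, and the TEAD core (GGAATG or, on the other strand, CATTCC) were searched on both strands, since targets of both factors include adhesion genes. A CArG box lay in 5 of the 89 windows (5.62%), in FLNA, ACTN1, LPP, TES and ITGB6, beside 1.29% of all 35116 windows. The TEAD core lay in 13 (14.6%), beside 14% of all. In the 60 windows of the lower genes the shares were 5% and 15%, and in the 23 windows of tested genes not called lower 4.35% and 8.7%. Counted by gene, the shares were 11.6% and 25.6% of the 43 genes, beside 1.6% and 16.7% of all 27305 genes. They were 10.3% and 24.1% of 29 lower genes, and 11.1% and 22.2% of 9 tested genes not called lower. A gene with more windows has more places for a match. TES, which was not called, held both motifs with overlapping letters, and ITGB6 was not tested. A TEAD core also lay in a window of CSRP1, which was called higher in 3D-primed cells. Stretches of 60 bases around the motifs are shown, 5′ to 3′ on the gene's strand, for the 3 CArG boxes in FLNA, ACTN1 and TES, and for the TEAD cores of TNS1, ITGA5 and VCL, which fell by 2.16, 3.24 and 0.63 on the log2 scale. Capitals mark the motif letters. The stretches are FLNA chrX:154374694-154374753 (minus strand), ACTN1 chr14:68977703-68977762 (minus), TES chr7:116222703-116222762 (plus), TNS1 chr2:217944253-217944312 (minus), ITGA5 chr12:54419314-54419373 (minus) and VCL chr10:73997920-73997979 (plus). None overlaps an annotated exon. The stretches of ACTN1, TES, TNS1 and VCL lie within the annotated span of the gene, before a start inside it. Those of FLNA and ITGA5 lie before the gene.
FLNA: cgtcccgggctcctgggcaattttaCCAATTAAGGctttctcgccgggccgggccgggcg
ACTN1: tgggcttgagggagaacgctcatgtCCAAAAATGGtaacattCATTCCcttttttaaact
TES: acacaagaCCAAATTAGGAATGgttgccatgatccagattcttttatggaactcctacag
TNS1: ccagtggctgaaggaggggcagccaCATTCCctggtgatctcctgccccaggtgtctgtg
ITGA5: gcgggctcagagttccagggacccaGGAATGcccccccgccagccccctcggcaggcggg
VCL: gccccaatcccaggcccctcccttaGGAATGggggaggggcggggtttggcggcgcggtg
Positions are counted from the transcript start of the window shown. In FLNA the CArG box starts 94 bases before it, in ACTN1 171 bases before it with a TEAD core 154 bases before it, and in TES 242 bases before it. A match is a run of letters, and whether a factor binds it in HepG2 cells was not tested.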

How the data were processed

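The authors sequenced polyA RNA of 8 HepG2 samples with a directional kit, quantified reads with Salmon on the Ensembl GRCh38 cDNA set and summed them to genes with tximport, and deposited the estimated counts per gene, which were whole numbers in every file. Whether tximport applied a length correction is not given in the sources used here. Groups and replicate numbers came from the labels. The labels do not say whether the replicates were separate cultures, so p-values measure the spread between these samples, which may be technical. No 2 libraries agreed within sampling noise (chi-square per degree of freedom 6.34 to 17.4 within groups).

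Of 38032 gene identifiers 29661 (78.0%), with 97.4% of counts, matched a GENCODE symbol. Genes reaching 10 counts in 2 or more libraries were tested with the quasi-likelihood test of edgeR 4.0.16 (R 4.3.3, TMM scaling, group as the only term) and Benjamini-Hochberg adjustment over 13943 genes. The SE is the log2 fold change over the root of F. CPM per kb divides by the length of the canonical protein-coding transcript. Ratios took log2 of counts plus 0.5. The code was tested on simulated counts with the same dispersion for all genes, unlike real counts. There edgeR recovered 95% of 1.5-fold and 99% of 2-fold changes. Of the calls, 6.73% were false with edgeR, 11.87% with DESeq2 and 6.28% with limma-voom. Alternatives were DESeq2 1.42.0, limma-voom 3.58.1, other scalings, filters and lengths, a pseudocount of 5, leaving out each library and a block for the replicate number.

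The genes, lists and pairs were chosen with earlier results of these data known. All 8 values were given for tested integrins, talins and kindlins with a mean of at least 1 CPM, and in the other roles for the 3 largest absolute log2 fold changes and any gene called against its role's majority. From the other lists, the 4 genes of smallest p and the 2 of smallest p against the majority were named, except 1 that is not reported here. Salmon can split reads between close relatives, so values of LIMS1, the alpha-actinins and FLNA are uncertain to that extent. Depth limits genes of few counts, such as ITGA3 and ITGA5, and counting error is not the only error.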

Additional observations from a re-analysis of the deposited data

Results flagged for a closer look

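Among 94 sets of 4 values (47 genes in each of the 2 groups), 3 had a library set apart from the remaining ones by a gap large for the group's range, where chance gives about 1 in 20, or 4.7 of 94. ITGA2 was 189.9 CPM in 2D-primed replicate 3 and 169 to 173 CPM in the others. CRKL was 112.3 CPM in 3D-primed replicate 3 and 105 to 107 CPM in the others, and ENAH was 65.3 CPM in 3D-primed replicate 1 and 73.0 to 74.3 CPM in the others. All 3 genes were called lower in 3D-primed cells in each leave-one-out fit.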

How the results depend on the processing

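Over 17 settings, 778 of 793 values of single genes kept direction and call. The 180 values of ratios were judged otherwise. With a pseudocount of 5, every pair kept its direction and call. With a library left out, no difference in log2 ratio could move by as much as the SD within groups, since each group held 4 values. The replicate block leaves the difference in means as it is. Neither setting therefore tests the stability of the ratios. Calls could not be compared there, since no p was computed with a library left out and the smallest sign-flip p of the block is 0.125. The median log2 fold change of the tested genes was -0.50, moved to -0.45 with upper-quartile scaling, and ran from -0.53 to -0.47 when each library was left out. Leaving out each library gave 8357 to 8875 genes called in all, 33 to 35 of the adhesion genes lower and 3 to 4 higher, 23 to 27 lower and 6 to 7 higher in the further plaque list, and 14 to 15 lower and 4 to 5 higher among ligands. Genes above 10 CPM per kb in 3D-primed cells were 28, or 18 with merged exon length, which is longer, and in 2D-primed cells 33 or 23.

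The sign turned only in genes that were not called: ARHGEF7 (0.006 with upper-quartile scaling, -0.10 to 0.0075 with each library left out), EVL (0.0021 with upper-quartile scaling) and FERMT2 (-0.0004 to 0.081 with each library left out). Upper-quartile scaling moved the median of all genes from 0.01 to 0.06, and under it PARVA (edgeR adjusted p = 0.055), PTK2 and CRK lost their calls and ITGAE gained one (0.047). Deviations of libraries with the same replicate number correlated at -0.04, -0.01, 0.06 and 0.01, so no pairing by number was seen. The labels do not say whether libraries of the same number were prepared together. With the replicate number as a block, 34 genes were lower, 3 higher and 8490 called in all, and PARVA lost its call (edgeR adjusted p = 0.06). The causes were not tested.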
